A study of Homo sapiens with 4 samples.

Results

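Cassette exons that lie between short introns were taken from RNA-seq of U87MG cells, a human glioblastoma line, that had received a decoy against the RBFOX splicing factors. An exon was a member if it was at least 28 and under 500 nt long and if the introns on both sides were 500 nt or shorter, and each exon was counted once, through its deepest event. The rule used no measured change. It found 5038 exons in 2387 genes, which was 8.73% of the 57729 distinct cassette exons listed. COL7A1 held 20 members, LAMA5 held 18, CELSR3 held 14, and FLNA and PNPLA6 held 13 each, whereas 1251 genes held 1 member. Members were not all separate sequences, because 571 overlapped another member and 1880 shared an intron with another member.

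The RBFOXi cells were transfected with 2.5 µM of an RNA oligonucleotide built from repeats of the RBFOX binding motif, and the SCRM cells with 2.5 µM of a scrambled oligonucleotide. Each group had 2 libraries, labelled as independent biological replicates. RBFOXi replicate 1 received a decoy labelled with the dye Cy5 and RBFOXi replicate 2 an unlabelled one, so that the dye and the replicate cannot be told apart. All groups share the line and the lipid transfection, and no untransfected cells were analysed here.

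Over all listed events the libraries held 114415530 to 136097319 inclusion and skipping counts, of which members took 9.44% to 10.26% in 3 libraries and 13.2% in SCRM replicate 1. In that library GAPDH made up 9.86% of the member counts, against 5.76% to 8.11% in the others, and TNC had 98204 counts against 319357 to 497586. Its part in the results was not tested, and values without it are given beside the main results. The mesenchymal and matrix genes VIM, FN1, CD44, TNC and SPARC had 40723 to 1445592 counts in every library. NES, searched in the same set, had 179 to 432, the epithelial KRT8 153 to 247 and the neuronal SYT1 16 to 240. No event was listed for the glial GFAP and S100B, the epithelial EPCAM, CDH1 and KRT18, or the neuronal RBFOX3. The blood and liver markers PTPRC, CD3E, HBB and ALB had none either.

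The spliceosome can pair splice sites across an intron (intron definition) or across an exon (exon definition). Short introns are thought to favour the former and the long introns typical of human genes the latter. RBFOX proteins bind UGCAUG, and as a rule promote inclusion of an exon from the downstream intron and skipping from the upstream intron. Because both introns of a member are short, the whole of each could be searched for the motif.

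The introns below carry the motif beside members described later, with the motif in capitals and T written for U. All are from GRCh37 (hg19), run 5′ to 3′ on the strand of the gene, and flank exons annotated as coding.
ACAA1, whole downstream intron (chr3:38167373-38167652, minus strand): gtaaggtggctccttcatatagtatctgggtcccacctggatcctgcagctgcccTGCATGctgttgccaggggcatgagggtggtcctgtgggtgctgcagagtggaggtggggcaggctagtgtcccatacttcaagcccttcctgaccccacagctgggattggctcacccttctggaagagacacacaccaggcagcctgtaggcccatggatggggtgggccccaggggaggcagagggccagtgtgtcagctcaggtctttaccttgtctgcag
JMJD4, whole downstream intron (chr1:227920378-227920629, minus strand): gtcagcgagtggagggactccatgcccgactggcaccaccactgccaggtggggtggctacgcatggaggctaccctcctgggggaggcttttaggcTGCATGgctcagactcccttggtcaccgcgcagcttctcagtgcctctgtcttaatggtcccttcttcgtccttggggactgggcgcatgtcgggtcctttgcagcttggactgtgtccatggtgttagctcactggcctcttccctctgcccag
KCNN4, start of the downstream intron (chr19:44273494-44273593, minus strand): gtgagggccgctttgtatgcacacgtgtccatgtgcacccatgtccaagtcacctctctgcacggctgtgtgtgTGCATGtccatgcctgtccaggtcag
GMIP, start of the downstream intron (chr19:19745216-19745315, minus strand): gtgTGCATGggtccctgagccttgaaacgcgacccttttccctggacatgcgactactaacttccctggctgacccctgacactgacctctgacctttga
CARM1, end of the upstream intron (chr19:11031951-11032050, plus strand): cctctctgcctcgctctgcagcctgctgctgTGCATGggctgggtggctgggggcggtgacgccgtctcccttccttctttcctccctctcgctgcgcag
The motif began at base 56 of the intron in ACAA1, at base 98 in JMJD4, at base 75 in KCNN4 and at base 4 in GMIP, where it ran into the 5′ splice site. It began 69 nt before the exon in CARM1.

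Short introns differed from long introns in base composition. Median GC content was 59.3% in the first 300 nt downstream of the tested members, compared with 41.3% for exons of the same length with both introns over 500 nt. Runs of GGG, which are known to act as intronic splicing enhancers in small introns, were counted with overlaps on the strand of the gene. They stood at a median of 4.0 per 100 nt downstream of members and 1.33 downstream of exons between long introns. Exons with 1 intron over 500 nt were intermediate, with 51.3% GC and 2.33 runs per 100 nt. These values describe the sequences and were not tested.

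The downstream introns below are examples, with each GGG in capitals. GAPDH and FTH1 were among the deepest members. RTEL1 had the densest runs of the ranked coding tested members with a downstream intron of 100 nt or shorter, but not all such members were ranked.
GAPDH, whole intron after its exon of 82 nt (chr12:6646557-6646749, plus strand): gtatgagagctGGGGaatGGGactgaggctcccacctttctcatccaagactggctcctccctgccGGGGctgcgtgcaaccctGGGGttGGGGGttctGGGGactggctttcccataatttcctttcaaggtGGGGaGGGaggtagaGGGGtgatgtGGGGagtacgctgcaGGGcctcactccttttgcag
FTH1, whole intron after its exon of 126 nt (chr11:61732364-61732458, minus strand): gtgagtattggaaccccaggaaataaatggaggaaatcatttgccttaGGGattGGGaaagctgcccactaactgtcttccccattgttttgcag
RTEL1, whole intron after its exon of 234 nt (chr20:62326328-62326418, plus strand): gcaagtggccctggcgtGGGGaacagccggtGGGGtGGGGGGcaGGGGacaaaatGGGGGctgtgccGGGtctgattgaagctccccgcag
Counted with overlaps, the GAPDH intron held 20 runs in 193 nt, the FTH1 intron 2 in 95 nt and the RTEL1 intron 14 in 91 nt. The RTEL1 intron began with GC in place of GT, as did the downstream introns of 33 of the 2557 tested members, and its exon had a mean percent spliced in (PSI) of 0.973 in SCRM.

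PSI is the length-corrected share of counts that include the exon. Members were tested with 5 or more counts in each library, a mean of 20 or more, and 4 or more of each form. This kept 2557 members (50.8%) in 1495 genes. Of the 2481 others, 2119 were deep but had fewer than 4 skipping counts in all, with a median of 694 counts per library, 356 had too few counts and 6 had fewer than 4 inclusion counts. The largest untested group therefore consisted of exons that were nearly always included, with a lowest mean SCRM PSI of 0.782. In 180 tested members skipping counts were seen in 1 condition only, and their fitted log2 odds depend on the pseudocount.

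Inclusion was high. The median SCRM PSI of tested members was 0.988, compared with 0.982 for exons with 1 long intron and 0.980 for exons between long introns. An intermediate PSI of 0.1 to 0.9 was found in 371 members (14.5%), compared with 18.8% and 17.8% of the other classes. With plain shares of counts, not corrected for length, these were 226 members (8.84%), 14.6% and 13.1%. A PSI under 0.1 was found in 90 members (3.52%), compared with 8.79% and 7.85%. Tested members were also deeper than exons between long introns, with medians of 693 and 242 counts in SCRM replicate 1 and 766 and 599 in SCRM replicate 2. A deeper exon reaches 4 skipping counts at a PSI closer to 1, and the part of depth in these differences was not tested. Next to the intron limit, the 273 members whose longer intron was 451 to 500 nt had a median PSI of 0.983 and the 249 exons whose longer intron was 501 to 550 nt had 0.977.

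**Figure D1:**
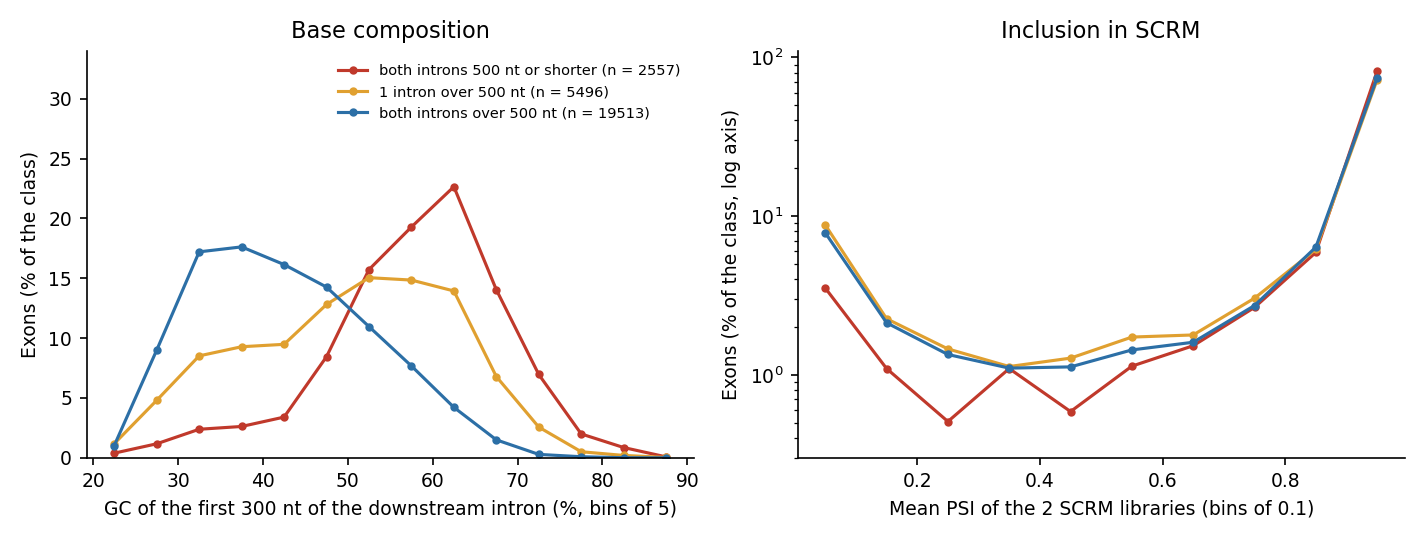
GC content of the first 300 nt of the downstream intron (left, % of exons per bin of 5 percentage points) and mean PSI in the 2 SCRM libraries (right, % of exons per bin of 0.1, log axis) for tested exons by intron length. Members (red) sit at higher GC, with a median of 59.3% against 41.3% for exons between long introns (blue), and 82.0% of them have a PSI over 0.9.

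Members were annotated as coding more often, 87.8% against 79.9% of exons between long introns, and 42.2% had a length divisible by 3, compared with 43.0%. Splice sites were scored as the summed log2 ratio of base frequencies in well included exons to equal frequencies. The median 5′ splice site score was 7.42 for members and 8.19 for exons between long introns, and the median 3′ score was 7.42 and 9.55. Among members the 5′ score was lower at lower inclusion, from 7.54 above a PSI of 0.9 to 7.08 at 0.1 to 0.9 and 5.72 under 0.1. The 3′ score did not follow this order, at 7.47, 7.06 and 7.84. The base frequencies came from the 21193 tested exons with a SCRM PSI over 0.9, of which 14502 lay between long introns. Members over 0.9 were among them, so a lower score outside that reference set is partly built in. The 90 members under 0.1 were coding in 35.6% of cases. Of them, 25.6% occurred in a transcript annotated for nonsense-mediated decay and in none of the protein-coding type, compared with 1.48% of the members over 0.9. Other transcript types were allowed.

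The 5′ splice sites below are those of 3 of the deepest members and of the 5 tested members with the lowest SCRM PSI, with the last 3 bases of the exon before the GT in capitals.
GAPDH, exon of 82 nt (chr12:6646554-6646562, plus strand): atgGTatga
EEF1A1, exon of 180 nt (chr6:74229054-74229062, minus strand): cagGTtggt
FTH1, exon of 126 nt (chr11:61732453-61732461, minus strand): catGTgagt
TBCD, exon of 114 nt (chr17:80895833-80895841, plus strand): cagGTctct
NAV1, exon of 75 nt (chr1:201763372-201763380, plus strand): cagGTtcaa
ZNF512, exon of 101 nt (chr2:27806391-27806399, plus strand): aagGTgttg
EIF4B, exon of 113 nt (chr12:53416148-53416156, plus strand): gagGTaact
ACTB, exon of 41 nt (chr7:5568644-5568652, minus strand): cagGTtcta
The exons of GAPDH, EEF1A1 (a translation elongation factor) and FTH1 (the ferritin heavy chain) had a PSI over 0.999 in every library, on 150772 or more counts each. Their sites scored 6.67, 6.18 and 8.38. The exons in TBCD, NAV1 and ZNF512 had no inclusion count in SCRM, and PSI reached 0.00261, 0.00408 and 0.00620 in RBFOXi. They passed the filter through RBFOXi only, so a higher value there was fixed in advance. SCRM replicate 1 held 66 counts for NAV1 and 18 for ZNF512. The EIF4B and ACTB exons stayed at or below 0.00478 and 0.00007. The sites of TBCD, NAV1 and ACTB scored 2.21, 1.08 and 0.88, but ZNF512 scored 4.90 and EIF4B 8.09. GAPDH, EEF1A1, FTH1 and ACTB have many processed pseudogenes, so their counts rest on how uniquely aligned reads were assigned.

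The comparison of RBFOXi with SCRM asks which exons depend on RBFOX activity. No tested member was called changed (limma on log2 odds, adjusted p under 0.05 and an absolute change in PSI, delta PSI, of at least 0.1), while 27 of all 39615 tested cassette events, 0.0682%, were called. The smallest adjusted p of a member was 0.160, for PCK2. Without adjustment, 109 members (4.26%) had p under 0.05, compared with 3.61% of all events. Of these, 61 were lower and 48 higher in RBFOXi, compared with 1.74% lower and 1.87% higher of all events. Events can repeat an exon, whereas members count each exon once. Of 28584 tested exons counted once, 3.76% had p under 0.05 before adjustment (limma), 552 lower and 522 higher. A quasi-binomial F test gave 131 members with p under 0.05 and none that was called.

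The RBFOXi and SCRM libraries did not overlap in 776 members (30.3%), against 30.8% of all events. A delta PSI of at least 0.1 in size was seen in 68 members (2.66%), against 4.83% of all events. The median delta PSI was 0.000041, or -0.0007 without SCRM replicate 1, and 90% of members lay between -0.0335 and 0.0487. The median size of delta PSI was 0.0053, and the median differences between replicates were 0.0075 in RBFOXi and 0.0073 in SCRM. Delta PSI compares means of 2 libraries and the replicate difference compares single libraries, so a smaller delta PSI is partly built in. Over all tested exons the values were 0.0075, 0.01 and 0.0107.

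The direction of members of intermediate inclusion was counted, with no test. With the class set by the mean PSI of all 4 libraries, 224 of 361 such members (62.0%) were higher, compared with 58.5% of 1044 exons with 1 long intron and 54.2% of 3448 exons between long introns. Their median PSI was 0.770 and 0.751 in RBFOXi and 0.717 and 0.743 in SCRM. The median delta PSI was 0.0141, compared with 0.0113 for exons with 1 long intron. The lowest library was SCRM replicate 1, which stood apart in composition. Without it the median delta PSI was 0.0063 and 54.5% of members were higher, and without RBFOXi replicate 1 the values were 0.0055 and 54.5%.

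**Figure D2:**
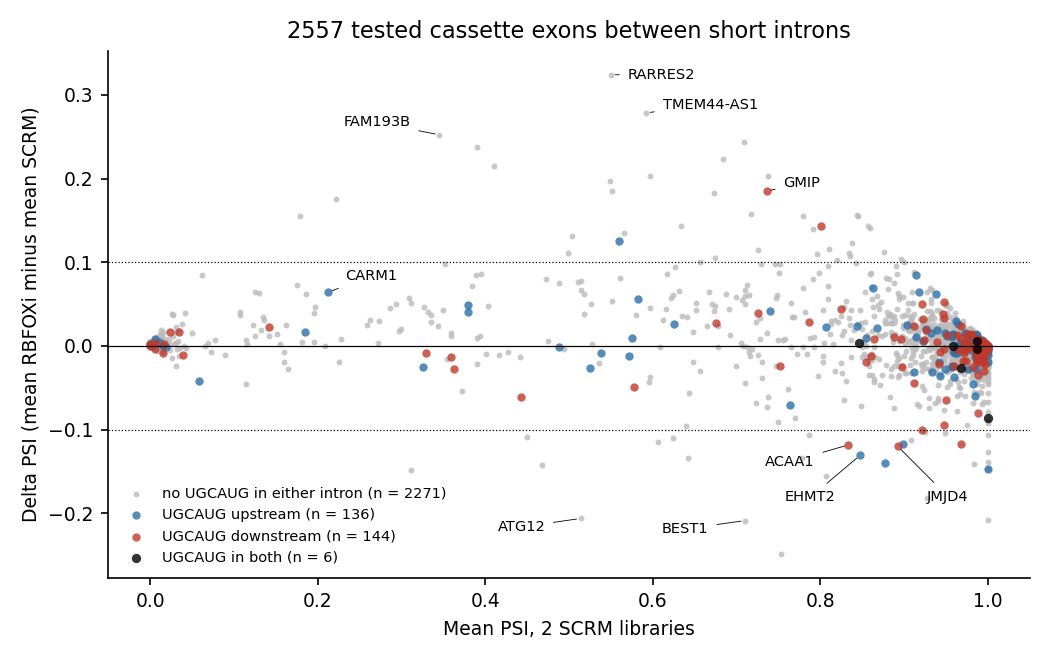
Delta PSI (mean RBFOXi minus mean SCRM) against mean SCRM PSI for the 2557 tested members, coloured by the intron that holds UGCAUG, with dotted lines at a delta PSI of 0.1 in either direction. Most members sit near a PSI of 1 and a delta PSI of 0, and 68 lie beyond the dotted lines.

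UGCAUG was found, on the strand of the gene, in the downstream intron of 150 tested members (5.87%) and in the upstream intron of 142 (5.55%), with 6 in both. Of exons between long introns, 61.3% held it somewhere downstream. Over windows of at most 300 nt the shares were 5.16% and 8.96%, and the densities were 2.87 and 3.25 copies per 10000 nt. The median downstream copy in members began at base 119.5 of the intron.

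Members with UGCAUG downstream had lower log2 odds of inclusion in RBFOXi relative to SCRM than the other members. Their median log2 odds change of inclusion was -0.20, with 93 of 150 (62.0%) lower in RBFOXi, compared with a median of 0.07 and 46.6% for the 2407 members without it. For the 61 members with the motif in the first 100 nt the median was -0.35, with 41 lower. Between replicates, the median log2 odds of the motif members varied with an SD of 0.33. Their median change moved from -0.37 without SCRM replicate 1 to -0.03 without SCRM replicate 2, and the members without the motif moved with it. The difference between members with and without the motif was -0.28 with all libraries and -0.20 to -0.36 with a library left out. It was -0.16 at an intron limit of 1000 nt and -0.11 for GCAUG in place of UGCAUG.

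The difference was also computed for each pair of libraries over windows of at most 300 nt, where 132 members held the motif downstream. It was -0.28, -0.20, -0.39 and -0.31 in the 4 pairs of an RBFOXi with a SCRM library, compared with 0.11 between the RBFOXi replicates and -0.04 between the SCRM replicates. For exons with 1 intron over 500 nt it was -0.24, -0.41, -0.30 and -0.40, and for exons between long introns -0.15 to -0.17. These pairs share libraries, and the difference between the intron classes was not tested. In terms of PSI the shift was small, with a median delta PSI of -0.00200 in the 132 members. For UGCAUG in the last 300 nt upstream, the pairs gave values of either sign in members, from -0.14 to 0.24. Members with CAUGCA, the reverse complement, downstream had a median log2 odds change of -0.01 (n = 108).

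**Figure D3:**
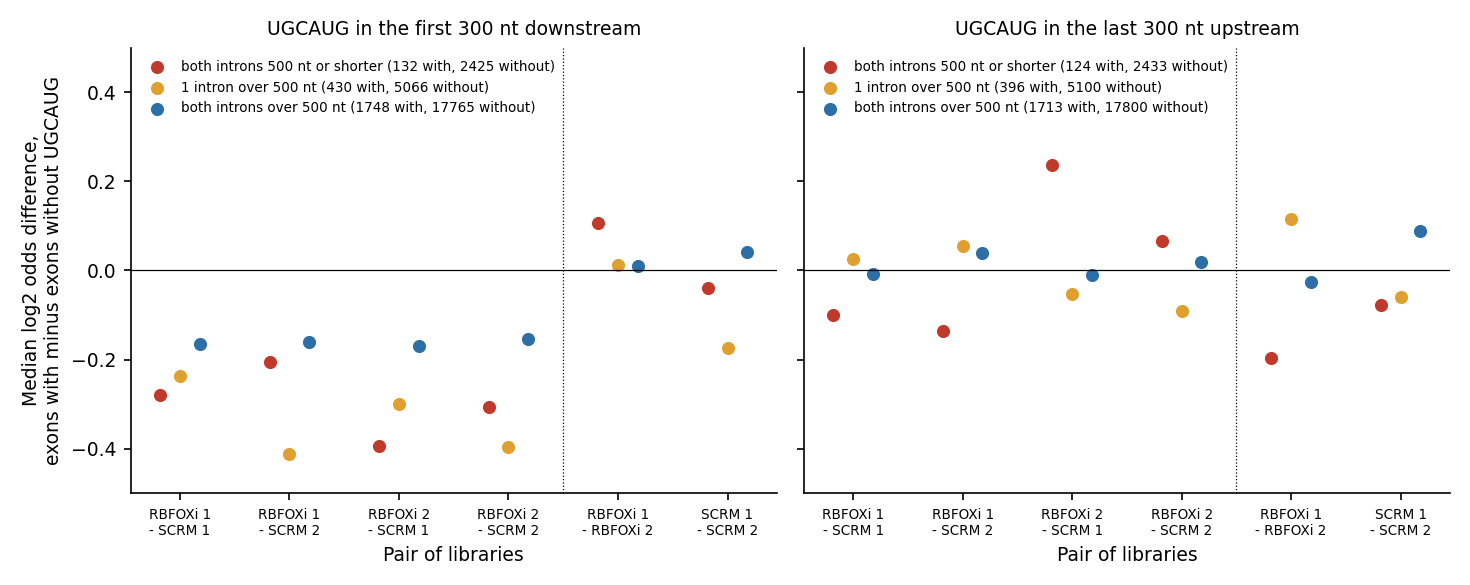
Median log2 odds difference between 2 libraries, as exons with UGCAUG minus exons without it, for the first 300 nt downstream (left) and the last 300 nt upstream (right), in members (red) and exons with 1 (orange) or both (blue) introns over 500 nt. Left of the dotted line are pairs of an RBFOXi with a SCRM library and right of it pairs of replicates. Downstream, members lie at -0.39 to -0.20 in the 4 pairs between groups.

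Among the 150 members with UGCAUG downstream, 11 (7.33%) had p under 0.05 before adjustment (limma), 8 lower and 3 higher. The shares were 4.07% of members without the motif and 3.61% of all events. Some of the 11, TBCD among them, had a form counted in RBFOXi only, so they passed the filter through that group. Of the 108 members with CAUGCA downstream, 9 (8.33%) had p under 0.05 (limma), 6 lower and 3 higher. Those 108 members also held 30 copies of UGCAUG downstream. The 22 members with UGCAUG downstream and a SCRM PSI of 0.1 to 0.9 had a median log2 odds change of -0.0033, with 11 lower. In the same PSI range, the 326 members with UGCAUG in neither intron had a median of 0.25, with 96 (29.4%) lower. Relative to those members, the 22 were therefore lower in RBFOXi. The medians were also apart between the RBFOXi replicates (replicate 1 minus replicate 2), at -0.20 with the motif and 0.05 without. The difference was not tested, and the PSI range was set on SCRM alone, which can shift the direction within each set. ACAA1 encodes the thiolase of peroxisomal fatty acid oxidation. Its exon of 180 nt had a PSI of 0.716 and 0.715 in RBFOXi and 0.820 and 0.848 in SCRM. The groups were apart, and the log2 odds change was -0.996 ± 0.34 (SE, n = 2 per group, adjusted p = 1.00, limma). The exon of 119 nt in KCNN4, a calcium-activated potassium channel, had a PSI of 0.986 and 0.964 in RBFOXi and 0.995 and 0.999 in SCRM. Skipping counts were 1 to 29 among 1865 to 2916 counts, and the change was -2.94 ± 0.72 (SE, adjusted p = 0.580, limma). In JMJD4, a JmjC-domain hydroxylase, the exon of 99 nt stood at 0.850 and 0.694 in RBFOXi and at 0.869 and 0.916 in SCRM, so that the groups were separated by less than the RBFOXi replicates differed.

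GMIP, a GTPase-activating protein, lay the other way. Its exon of 197 nt had a PSI of 0.914 and 0.928 in RBFOXi and 0.689 and 0.783 in SCRM, on 8 to 26 skipping counts. The change was 2.00 ± 0.58 (SE, adjusted p = 1.00, limma).

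Of the 24 members with UGCAUG upstream and a SCRM PSI of 0.1 to 0.9, 10 had groups that did not overlap, 2 lower and 8 higher. Of all events, 16.5% were lower and 14.3% higher in this way. The same lean was seen without the motif. In this PSI range 326 members had UGCAUG in neither intron, and 96 had groups apart, 25 lower and 71 higher. The range was set on SCRM alone, so a lean to higher values in RBFOXi can be partly built in. Members in it had a median delta PSI of 0.0244, compared with 0.0141 when the range was set on all 4 libraries. The median log2 odds change was 0.13 with the motif upstream and 0.25 with it in neither intron. CARM1, an arginine methyltransferase, had a PSI of 0.270 and 0.283 in RBFOXi and 0.211 and 0.214 in SCRM at its exon of 69 nt, on 375 or more skipping counts. The groups were apart, with a change of 0.50 ± 0.31 (SE, adjusted p = 1.00, limma). In EHMT2, the histone methyltransferase G9a, the exon of 102 nt lay the opposite way, at 0.708 and 0.725 in RBFOXi and 0.833 and 0.862 in SCRM. Its change was -1.12 ± 0.45 (SE, adjusted p = 1.00, limma). The other members of this kind included UBTF, a factor of ribosomal gene transcription, whose exon of 111 nt had a PSI of 0.448 and 0.526 in RBFOXi and 0.442 and 0.534 in SCRM. WBP5, with an exon of 79 nt and 7686 or more counts, stood at 0.559 and 0.609 and at 0.514 and 0.636. In both, the replicates differed by more than the groups.

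The members with the smallest unadjusted p did not share the motif, apart from KCNN4 and GMIP. PCK2 encodes the mitochondrial phosphoenolpyruvate carboxykinase, and its exon of 188 nt had a PSI of 0.956 and 0.910 in RBFOXi and 1.00 in both SCRM libraries, where no skipping count was seen. G6PC3 encodes a ubiquitous glucose-6-phosphatase, and its exon of 119 nt stood at 0.951 and 0.946 in RBFOXi and 0.896 and 0.866 in SCRM, with a change of 1.30 ± 0.34 (SE, adjusted p = 0.779, limma). DHX8, a helicase that releases spliced RNA from the spliceosome, stood at 0.954 and 0.956 in RBFOXi and 0.992 in both SCRM libraries. CC2D1B and RBM8A, a protein of the exon junction complex, had skipping counts in RBFOXi only, and MRPL38 and HNRNPU in SCRM only, with a PSI of 0.974 or more in every library.

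Among members whose groups did not overlap, the largest changes in PSI were on few counts. FAM193B had 2 overlapping members of 179 and 248 nt that share their downstream intron and skipping reads. The shorter had a PSI of 0.628 and 0.566 in RBFOXi and 0.341 and 0.349 in SCRM, on 82 to 202 counts, and the longer stood at 0.655 and 0.601 and at 0.350 and 0.430. The change of the shorter was 1.48 ± 0.50 (SE, adjusted p = 1.00, limma). RARRES2, which encodes chemerin, stood at 0.936 and 0.812 in RBFOXi and at 0.734 and 0.366 in SCRM, on as few as 7 counts in a library. TMEM44-AS1, an antisense RNA, stood at 0.775 and 0.966 and at 0.620 and 0.563, but reads of the opposite strand could not be told apart. ISYNA1, the inositol phosphate synthase, stood at 1.00 and 0.815 and at 0.583 and 0.784.

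The 5 lowest delta PSI were likewise on 11 to 81 counts per library. ATG12, a ubiquitin-like protein of autophagy, had a PSI of 0.342 and 0.273 in RBFOXi and 0.5003 and 0.528 in SCRM. BEST1, a chloride channel, stood at 0.551 and 0.453 and at 0.831 and 0.590, with a log2 odds change of -1.35 that was -0.50 without SCRM replicate 1, and GRB7, a signalling adaptor, at 0.356 and 0.651 and at 0.692 and 0.813. DNHD1 and TMEM234 reached 1.00 in at least 1 SCRM library. None of these 5 falls and 5 rises had UGCAUG in either intron. They were not the 10 largest changes in size. GMIP, with UGCAUG downstream and groups apart, had a delta PSI of 0.185, compared with -0.182 in TMEM234.

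**Figure D4:**
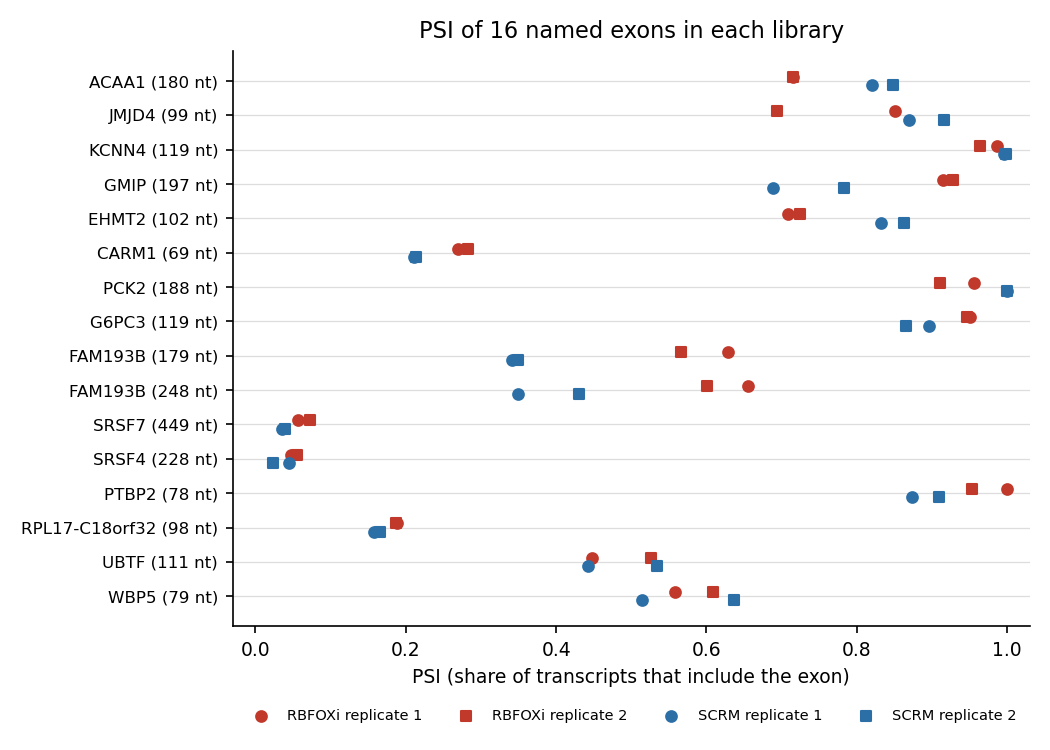
PSI of 16 named exons in each of the 4 libraries, with RBFOXi in red, SCRM in blue, circles for replicate 1 and squares for replicate 2. The groups are apart in ACAA1, EHMT2, GMIP and both FAM193B exons and overlap in UBTF and WBP5.

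The gene lists held 0 called members, as did all tested members. Genes of SR proteins are known to hold poison exons, which carry early stop codons and are rarely included. Of 4 tested members in them, 2 had a SCRM PSI under 0.1. The exon of 449 nt in SRSF7 had a PSI of 0.0561 and 0.0724 in RBFOXi and 0.0357 and 0.0399 in SCRM, on 2433 or more skipping counts, with a change of 0.80 ± 0.23 (SE, adjusted p = 1.00, limma). It was the member that passed an adjusted p of 0.05 in the quasi-binomial F test (adjusted p = 0.0282), with a delta PSI of 0.0265. SRSF4 had an exon of 228 nt at 0.0475 and 0.0549 in RBFOXi and 0.0446 and 0.0238 in SCRM, with UGCAUG at base 134 downstream. Of 8 tested members in HNRNP genes, HNRNPU alone had p under 0.05, and of 13 in core spliceosome genes none. U2AF1L4 stood at 0.0677 and 0.0702 in RBFOXi and 0.136 and 0.0921 in SCRM.

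Ribosomal protein genes held 39 members, of which 24 were tested, with a median SCRM PSI of 0.999 and delta PSI from -0.00080 to 0.0255. The largest was the non-coding exon of 98 nt in RPL17-C18orf32, at 0.188 and 0.187 in RBFOXi and 0.158 and 0.166 in SCRM. Translation factors had 16 tested members, aminoacyl-tRNA synthetases 28, proteasome subunits 27, collagens 16, glycolytic enzymes 10 and lysosomal enzymes 13. Of these 6 lists, PSMD6 was the 1 proteasome member with p under 0.05, at 0.0354 and 0.0444 in RBFOXi and 0.0179 and 0.0296 in SCRM, and TPP1 the 1 lysosomal member. None of the 3 members in chaperonin CCT genes passed the filter. In COL16A1 the exon of 48 nt had a PSI of 0.426 and 0.431 in RBFOXi and 0.389 and 0.495 in SCRM.

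Actin cytoskeleton and adhesion genes held 66 members, of which 33 were tested. Their median log2 odds change was -0.61, the lowest of the 11 lists with a tested member, and 5 (15.2%) had p under 0.05, compared with 3.61% of all events, 3 downwards and 2 upwards. The 3 were in ITGA3, an integrin subunit with 2 such exons, and in FLNC, and each had a PSI of at least 0.996 in every library. The ITGA3 exon of 98 nt had a PSI of 1.00 in both SCRM libraries, and 1 of the 2 upwards had 1.00 in both RBFOXi libraries. In such exons skipping was counted in 1 condition only. By delta PSI the list had a median of -0.00040. Its lowest value was -0.139, for the exon of 115 nt in FMNL1, a formin, with a PSI of 0.863 and 0.859 in RBFOXi and 1.00 in both SCRM libraries on 14 to 57 counts, which gave a change of -2.19 ± 1.20 (SE, adjusted p = 1.00, limma). Of the genes followed by RT-PCR in the study, NUMA1, RTN4 and PTBP2 held members. They were matched by gene symbol, and whether these exons are the ones assayed was not checked. The paper followed NUMA1 as a target of RBFOX1/2, and RTN4 and PTBP2 as targets of PTBP1 in breast cancer cells. The NUMA1 and RTN4 exons had a lowest PSI of 0.998 and 1.00 and too few skipping counts to test. The PTBP2 exon of 78 nt stood at 1.00 and 0.953 in RBFOXi and 0.873 and 0.909 in SCRM, on 0 to 3 skipping counts.

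Retention of the same introns was a readout that the rule did not use. Of 1290 listed retained introns, 199 lay beside members, and 180 of these were tested. None was called (limma), as in all 1034 tested retained introns, where 0.0% were called. None had p under 0.05 before adjustment, compared with 1.74% of all tested, and the quasi-binomial F test gave 2 and no call. Their retention level was lower than that of the other introns, with medians of 0.120 to 0.131 per library compared with 0.318 to 0.351. Of those with the smallest p, introns in CNOT3 and DYNC1H1 were retained at under 0.00500 in every library. An intron of 339 nt in TCIRG1 was retained at 0.505 and 0.421 in RBFOXi and 0.363 and 0.354 in SCRM, and one of 73 nt in MAGIX at 0.407 and 0.338 and at 0.562 and 0.769, on 19 to 49 counts.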

How the data were processed

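RNA-seq libraries of U87MG cells, 2 transfected with RBFOXi and 2 with SCRM, were compared. Per the study's methods, the authors aligned paired reads to hg19 with STAR 2.4.2a, kept unique alignments, and counted inclusion and skipping reads, on target exon and junctions, per event of the UCSC known genes with rMATS. The deposited tables for skipped exons and retained introns hold these counts as whole numbers, both replicates in 1 cell, and were not normalized. Columns with the authors' own p-values, FDR and inclusion differences, and the other event types, were not used. Members and gene lists were chosen with earlier results of these data known.

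PSI was the inclusion count over its effective length, divided by the sum of both forms. Tested events (39615 skipped exons) had 5 or more counts in each library, a mean of 20 and 4 of each form. A limma model (version 3.58.1, R 4.3.3, empirical Bayes trend over the counts) was fitted to log2 odds after 0.5 was added to each count, and p-values were adjusted over all tested events by Benjamini-Hochberg. edgeR had been planned as an alternative but was not run, because the packed cells could not be entered as a count table. A quasi-binomial F test was added in its place after seeing the data, and both fits were tested on simulated counts. Named members were the 10 with the smallest p, the 5 largest falls and rises with groups apart, those with UGCAUG and a SCRM PSI of 0.1 to 0.9, the lowest PSI, the deepest, RT-PCR genes, 5 retained introns (1 not reported here) and 2 per gene list; members in ITGA3, FLNC, PSMD6, TPP1, FMNL1, RTEL1, SHMT2, FMNL3, ACTN1 and C17orf76-AS1 were named after their values were seen. Introns were read from GRCh37 and exons matched to GENCODE. Python 3.11.15, numpy 2.4.6 and pandas 2.3.3 were used.

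Counts per tested member had a median of 693 to 841 per library. Replicates differed by 2.52 and 2.58 times the counting variance, so intervals from counts alone were not given. In bulk RNA, fewer cells that include an exon and less inclusion per cell cannot be told apart.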

Additional observations from a re-analysis of the deposited data

How the results depend on the processing

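No member and no retained intron beside a member was called under pseudocounts of 0.1 and 1, filters of 1 and 20 counts, centred log2 odds, a minimum delta PSI of 0.05 or 0.2, plain shares, or the quasi-binomial F test. With the replicate number as a block (replicate block), 5 members passed an adjusted p of 0.05 (C17orf76-AS1, G6PC3, KCNN4, PCK2 and SRSF7) but 0 were called, since each delta PSI was under 0.1. The labels do not say what the numbers share, and the deviations of same-numbered libraries correlated at 0.147 over members. Leaving out 1 library gave 0 to 1 called members, and 0 retained introns. The 1 was SHMT2 without RBFOXi replicate 1, with a PSI of 0.975 and 0.831 in RBFOXi and 0.956 and 0.971 in SCRM. An intron limit of 1000 nt gave 2 called, in FMNL3 and ACTN1, each with an intron over 500 nt. Members of intermediate SCRM PSI numbered 226 with plain shares, 183 at a limit of 300 nt, 782 at 1000 nt, and 347 to 393 with a SCRM library left out. The median log2 odds change with UGCAUG downstream was -0.37 to -0.03 with a library left out, -0.10 at 1000 nt and -0.04 for GCAUG. Relative to members without the motif it was -0.20 to -0.36, -0.16 and -0.11. In members of intermediate mean PSI the median delta PSI was 0.0055 to 0.0269 with a library left out, a setting added after seeing the data. Among 24 named members, 6 of 253 refits moved a value past the threshold and 0 changed sign. The edgeR alternative was not run. With 2 libraries per group, changes in exons near a PSI of 1 rest on few skipping counts.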
